A study of Mus musculus with 9 samples.

Results

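The genes described here are the gene segments of the T-cell receptor. They were chosen by symbol and by read number: genes whose symbol begins with Trav, Trbv, Trgv, Trdv, Trac, Trbc, Trgc or Trdc, annotated as a receptor V or C gene, with at least 5 counts summed over the 9 libraries. This rule found 28 of the 140 annotated genes that carry such a symbol, among 55401 genes counted in all. The 28 were 13 alpha V segments, 9 beta V segments, the gamma segment Trgv2, the delta segment Trdv4, and the constant genes Trac, Trbc1, Trbc2 and Trdc. A further 112 fell below the minimum, and 74 of those had no read in any library. The annotation names most gamma genes with the prefix Tcrg-, so they lie outside the letter of the rule. The 6 of these with at least 5 counts (Tcrg-C1, Tcrg-C2, Tcrg-C3, Tcrg-C4, Tcrg-V1 and Tcrg-V4) are described beside the 28, which gives 34 receptor genes together. Because the minimum was a sum over all libraries, a segment could be selected on reads from 1 group alone. Counts over the 34 genes are therefore descriptions only. Just inside the minimum, Trav5-1, Trav14d-3-dv8, Trav16n and Trav4-4-dv10 had 5 reads each. Just outside it, Trav10n, Trav4-2, Trav5-4, Trdv1, Trdv2-2 and Trbv20 had 4.

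The libraries were made from the gastrocnemius muscle of FVB mice, wild type and 2 to 3 months old, taken 7 weeks after it was injected. One group of 3 libraries came from muscle given saline. Another 3 came from muscle given AAV-GFP, an adeno-associated virus that carries green fluorescent protein. The last 3 came from muscle given AAV-GFP-MBNL1∆, which by its name also carries a form of MBNL1, an RNA-binding splicing factor, and which the series' title describes as a decoy. The labels give no promoter, serotype or dose for the vectors. Nor do the labels say that the 3 libraries of a group came from separate animals, so the spread between libraries may be partly technical. The muscle identity was clear in all libraries: the summed level of 7 muscle markers (Acta1, Ckm, Myh4, Myh1, Tnnt3, Atp2a1 and Ryr1) lay between 79912 and 178001 CPM, read counts scaled to a common library size.

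A T-cell receptor is a pair of chains, alpha with beta or gamma with delta. Each chain gene is assembled in the thymus by joining 1 V segment, in some loci a D segment, and a J segment, upstream of a constant gene. A clone of T cells and all its descendants keep the same V choice, but many clones share a V segment, so V reads give segment usage and not clones, while constant-gene reads record how much receptor RNA there is. Most T cells of blood and lymph nodes carry the alpha and beta chains, and gamma-delta T cells are enriched in skin, gut and other tissues.

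The sequences below show the ends of the V segments on which the usage results turn. Each is the last 60 bases of the annotated GENCODE M21 transcript (GRCm38), 5′ to 3′ on the coding strand. In the first 6 the capitals mark the codon of the conserved cysteine at which the hypervariable CDR3 loop begins. A variable number of bases is removed from the end of the segment when it is joined, so part of what follows the codon is usually kept in the assembled gene. In Trbv24, which the annotation calls a pseudogene and which was nevertheless read, the capitals mark an in-frame stop codon, the only 1 in the frame of its first ATG.
Trbv19 (chr6:41178989-41179048, plus strand): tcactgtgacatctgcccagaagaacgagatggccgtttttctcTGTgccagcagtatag
Trbv3 (chr6:41048769-41048828, plus strand): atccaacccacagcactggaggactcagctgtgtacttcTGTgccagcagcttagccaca
Trbv26 (chr6:41227934-41227993, plus strand): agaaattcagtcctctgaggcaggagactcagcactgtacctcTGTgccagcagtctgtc
Trav6d-4 (chr14:52753787-52753846, plus strand): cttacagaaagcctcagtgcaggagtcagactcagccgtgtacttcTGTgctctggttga
Trgv2 (chr13:19336573-19336632, minus strand): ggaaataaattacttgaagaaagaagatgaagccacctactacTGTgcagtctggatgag
Trdv4 (chr14:54075456-54075515, plus strand): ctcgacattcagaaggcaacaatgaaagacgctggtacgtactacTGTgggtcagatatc
Trbv24 (chr6:41218498-41218557, plus strand): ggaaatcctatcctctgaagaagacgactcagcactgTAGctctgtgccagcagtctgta

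Some receptor genes are near copies of each other, which limits what a read counted once per gene can tell. Trbc1 (chr6:41538218-41539881) and Trbc2 (chr6:41546730-41548352), the 2 beta constant genes, are 95.6% identical over the 521 bases that align, with 23 differences. Only 1 difference lies before position 383. The final 140 aligned bases, which end with the stop codon, hold the other 22, shown in capitals.
Trbc1: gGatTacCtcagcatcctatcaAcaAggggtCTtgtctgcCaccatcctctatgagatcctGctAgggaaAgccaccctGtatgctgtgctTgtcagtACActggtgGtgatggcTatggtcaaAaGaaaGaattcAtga
Trbc2: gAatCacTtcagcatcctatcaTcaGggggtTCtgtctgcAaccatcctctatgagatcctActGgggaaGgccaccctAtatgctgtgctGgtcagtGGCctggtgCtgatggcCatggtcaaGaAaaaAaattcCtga

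Trav6d-4, the alpha segment with the most reads, has a near copy in Trav6-4 (chr14:53454296-53454784). They differ at 10 of 378 aligned bases. An 80-base window that holds 5 of the differences follows, with those bases in capitals.
Trav6d-4: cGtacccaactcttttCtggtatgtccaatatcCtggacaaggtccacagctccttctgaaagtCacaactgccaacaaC
Trav6-4: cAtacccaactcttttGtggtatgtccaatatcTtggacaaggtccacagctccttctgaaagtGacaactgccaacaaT

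Receptor reads were rare everywhere and rarest after saline. The libraries held 44603618 to 76970849 reads assigned to genes, and the 28 genes took 40, 19 and 64 of them in the saline libraries, 761, 2677 and 139 in the AAV-GFP libraries, and 274, 297 and 142 in the AAV-GFP-MBNL1∆ libraries. Summed over the 34 receptor genes and scaled to library size (TMM), the level was 0.707, 0.363 and 0.988 CPM after saline. It was 12.2, 35.0 and 3.32 CPM after AAV-GFP and 4.27, 6.0 and 2.31 CPM after AAV-GFP-MBNL1∆. All 6 vector libraries lay above all 3 saline libraries, and the vector groups overlapped. The means were 0.686 ± 0.313, 16.9 ± 16.3 and 4.19 ± 1.85 CPM (SD, n = 3 each). Without AAV-GFP library 2, which held more receptor reads than the other 8 libraries together, the AAV-GFP mean was 7.77 CPM. In whole muscle, fewer T cells and less receptor RNA per T cell cannot be told apart.

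The alpha constant gene Trac (chr14:54220521-54224206), which lies downstream of the joined alpha V and J segments, was at 0.188, 0.0606 and 0.312 CPM after saline. After AAV-GFP it was at 3.20, 8.58 and 0.575 CPM, and after AAV-GFP-MBNL1∆ at 1.22, 1.91 and 0.524 CPM. The lowest vector library therefore stood above the highest saline library, and the 2 vector groups overlapped. The log2 fold change against saline was 4.44 ± 1.03 (SE) for AAV-GFP (adjusted p = 0.0855, edgeR's quasi-likelihood test with Benjamini-Hochberg adjustment over all 18514 tested genes). For AAV-GFP-MBNL1∆ against saline it was 2.66 ± 1.0 (edgeR adjusted p = 0.137). Neither passed the threshold of 0.05.

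The beta constant genes had the same order of groups. Trbc1 was at 0.202, 0.0303 and 0.208 CPM after saline, 3.25, 11.4 and 0.974 CPM after AAV-GFP, and 0.872, 1.15 and 0.644 CPM after AAV-GFP-MBNL1∆. Trbc2 was at 0.0289, 0.0303 and 0.130 CPM after saline, 2.61, 6.47 and 0.664 CPM after AAV-GFP, and 1.04, 1.27 and 0.404 CPM after AAV-GFP-MBNL1∆. For both genes each vector library exceeded each saline library. Against saline, the log2 fold changes for AAV-GFP were 5.12 ± 0.98 for Trbc1 and 5.62 ± 1.01 for Trbc2 (edgeR adjusted p = 0.0841 for both). For AAV-GFP-MBNL1∆ they were 2.56 ± 0.95 for Trbc1 (edgeR adjusted p = 0.135) and 3.76 ± 1.0 for Trbc2 (edgeR adjusted p = 0.0535). Trbc2 against saline thus stood closest to the threshold of the receptor genes in any comparison, on 14 saline reads in all.

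Which of the 2 beta constant genes took the reads varied between libraries. Trbc1 held 55.4%, 63.8% and 59.5% of the Trbc1 and Trbc2 reads in the AAV-GFP libraries and 45.7%, 47.4% and 61.4% in the AAV-GFP-MBNL1∆ libraries. Over the group sums the share was 61.9% after AAV-GFP, with 1178 reads on Trbc1 and 726 on Trbc2 (Wilson 95% interval 59.7% to 64.0%), and 49.7%, with 164 and 166 reads, after AAV-GFP-MBNL1∆ (44.3% to 55.1%). The intervals cover counting error only, and the ranges of the 2 groups overlapped between libraries. Most of their coding sequence is shared, with only 1 difference before position 383 of the aligned bases. Reads that fit both genes could not be assigned to either by counting that requires a unique position. The split rests on the part where they differ.

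The delta constant gene Trdc (chr14:54142851-54148868) varied little after saline. Its end overlaps the antisense segment Trdv5 in the annotation, and with the strand setting unknown reads of the 2 may not be separable; Trdv5 itself had 3 reads. Trdc was at 0.115, 0.121 and 0.104 CPM there, with 8 reads in each library. After AAV-GFP it was at 0.667, 1.74 and 0.443 CPM, and after AAV-GFP-MBNL1∆ at 0.436, 0.582 and 0.285 CPM. Every vector library lay above every saline library. The log2 fold change against saline was 3.07 ± 0.55 for AAV-GFP (edgeR adjusted p = 0.0841) and 1.91 ± 0.56 for AAV-GFP-MBNL1∆ (edgeR adjusted p = 0.0676). Neither passed.

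Of the gamma constant genes, Tcrg-C2 moved furthest. It had 2, 1 and 0 reads in the saline libraries, 36, 54 and 4 after AAV-GFP, and 4, 20 and 2 after AAV-GFP-MBNL1∆. Its log2 fold change for AAV-GFP against saline was 4.80 ± 1.23 (edgeR adjusted p = 0.0932) on 3 saline reads, so its size depends on how such low counts are smoothed. Tcrg-C4 was at 0.0866, 0.0303 and 0.0520 CPM after saline, 0.207, 0.635 and 0.0221 CPM after AAV-GFP, and 0.0451, 0.182 and 0.0449 CPM after AAV-GFP-MBNL1∆. Its groups overlapped, and its log2 fold changes against saline were 2.40 ± 0.96 for AAV-GFP (edgeR adjusted p = 0.20) and 0.61 ± 1.12 for AAV-GFP-MBNL1∆ (edgeR adjusted p = 0.782). Tcrg-C1, with 10 reads after saline, 28 after AAV-GFP and 13 after AAV-GFP-MBNL1∆, did not pass the low-count filter. Tcrg-C3 had 8 reads, all in AAV-GFP libraries 1 and 2.

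**Figure D1:**
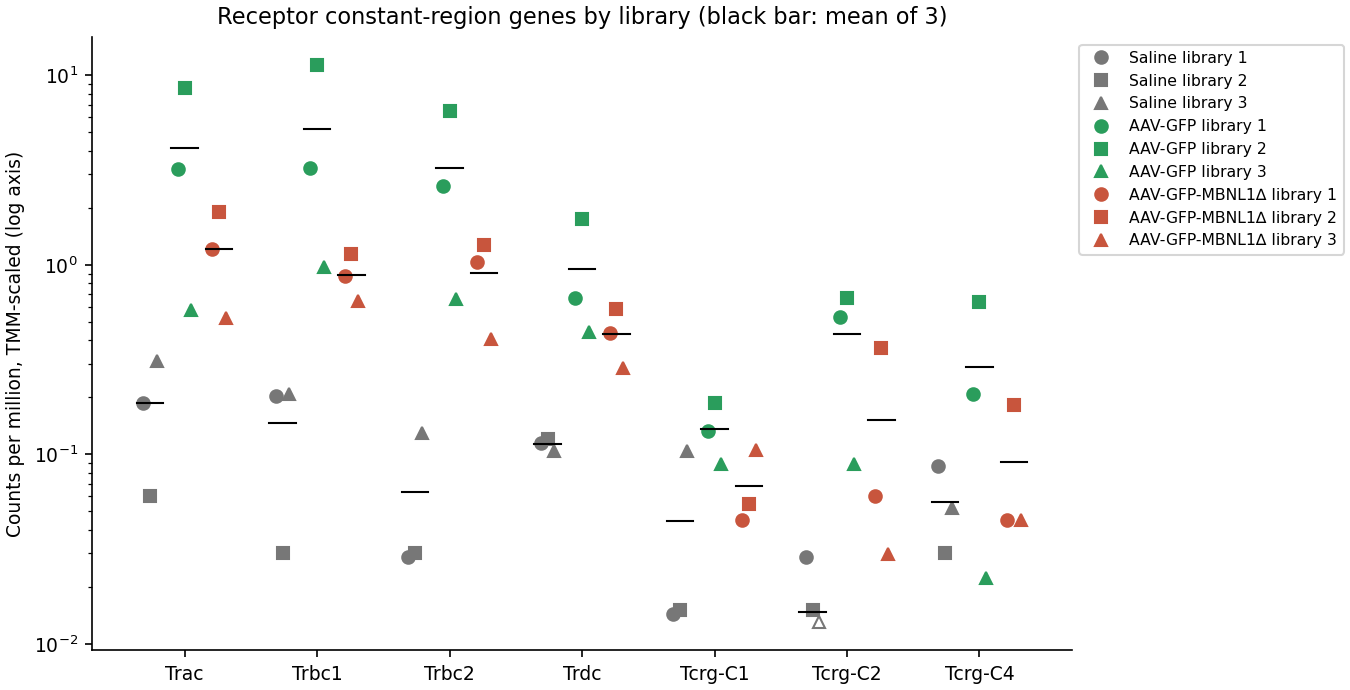
Level of 7 receptor constant genes in each library, in TMM-scaled CPM on a log axis; symbols give the library number within its group, black bars the mean of 3, and the open symbol a library with no read drawn at the level of 1 read. AAV-GFP library 2 is the highest for each gene, from 0.187 CPM for Tcrg-C1 to 11.4 CPM for Trbc1, and AAV-GFP library 3 is the lowest AAV-GFP library for each.

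Only 7 of the 34 receptor genes had enough reads to be tested across all genes: Trac, Trbc1, Trbc2, Trdc, Trbv3, Tcrg-C2 and Tcrg-C4. None was called in any comparison. For AAV-GFP against saline, the share of all 18514 genes called was 0% higher and 0% lower; the receptor count of 0 equals that background. All 7 had an unadjusted p under 0.05 in this comparison, as did 22.0% of all tested genes, and their median log2 fold change was 4.80 against -0.01 over all genes. The low-count filter could be passed on vector-library reads alone, as by Trbv3, which had no saline read. Medians of these 7 against saline can thus be raised by the filter itself and are descriptions only. For AAV-GFP-MBNL1∆ against saline, 4.76% of all genes were called higher and 4.6% lower. There 5 of the 7 had an unadjusted p under 0.05, and the median was 2.66 against 0.02. For AAV-GFP-MBNL1∆ against AAV-GFP, 10.8% were called higher and 10.3% lower. Of the 7, 3 had an unadjusted p under 0.05, and the median was -1.77 against -0.06. The first 2 comparisons share the saline libraries and the last shares a group with each, so their values are not independent of each other.

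These counts depended on single libraries and on the tool. Without AAV-GFP library 3, which had the fewest receptor reads of its group, edgeR called 10 receptor genes higher for AAV-GFP against saline: Tcrg-C2, Tcrg-C4, Trac, Trbc1, Trbc2, Trbv1, Trbv29, Trbv3, Trbv31 and Trdc. It then also called Trac, Trbc1, Trbc2 and Trdc higher for AAV-GFP-MBNL1∆ against saline, and 8 receptor genes lower for AAV-GFP-MBNL1∆ against AAV-GFP. Of all 19053 genes tested in that fit, 2907 were called higher in the first comparison and 1146 in the second. Between the vectors, 4269 were called lower. Without AAV-GFP library 2, Trbc1, Trbc2 and Trdc were called for AAV-GFP-MBNL1∆ against saline, beside 1933 of 18682 genes called higher, and none in the other 2 comparisons. Leaving out saline library 2 or 3 brought 1 call, Trbv31, for AAV-GFP-MBNL1∆ against AAV-GFP. Of all genes, 854 of 18989 and 1106 of 18975 were then called lower. DESeq2, with its own filter, called 8, 4 and 2 receptor genes in the 3 comparisons, and limma-voom called none. Over all genes, DESeq2 called 1758 of 20901 and 1521 of 19766 higher against saline, and 2960 of 20333 lower between the vectors. The 4 calls of DESeq2 for AAV-GFP-MBNL1∆ against saline were Trbc1, Trbc2, Trbv3 and Trdc. Restricting the edgeR fit to the 6 libraries of that comparison called Trac, Trbc1, Trbc2 and Trdc, with adjusted p-values of 0.0171, 0.00415, 0.00326 and 0.00477. That fit called 2303 of 17811 genes higher.

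**Figure D2:**
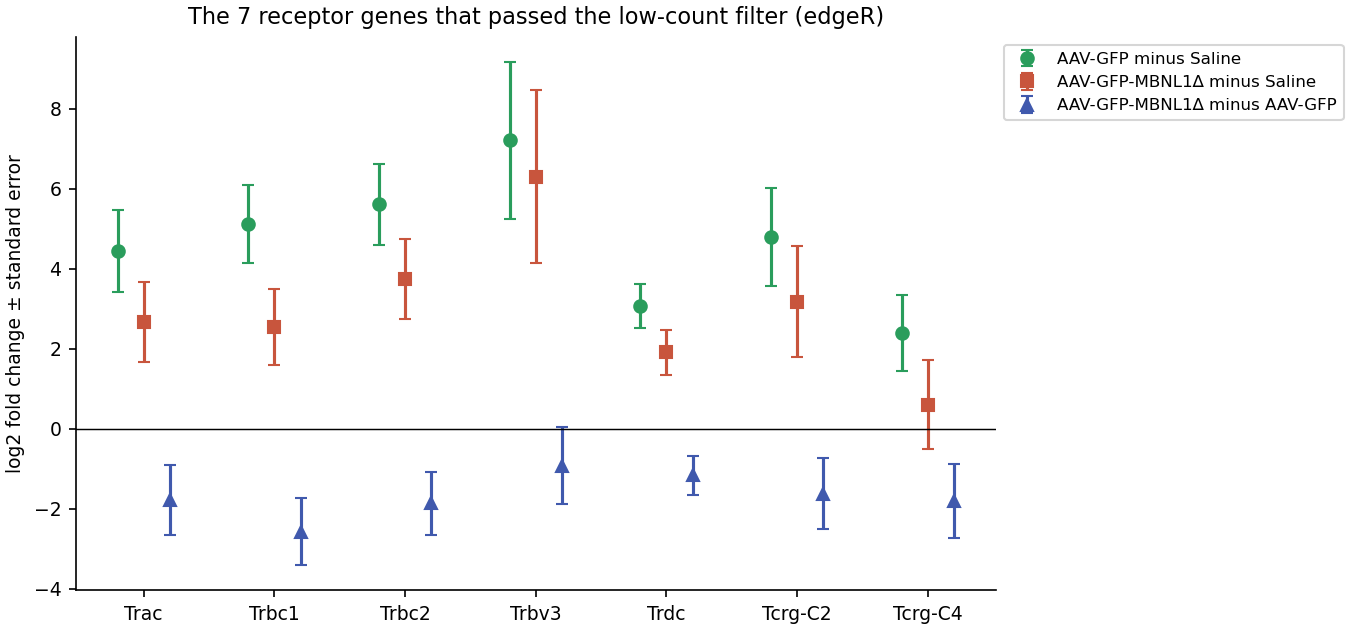
Log2 fold changes with their standard errors from edgeR for the 7 receptor genes that passed the low-count filter, in the 3 comparisons. All 7 estimates against saline are above 0 for both vectors, all 7 for AAV-GFP-MBNL1∆ against AAV-GFP are below 0, and none passed an adjusted p of 0.05.

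Between the vectors, the constant genes were lower after AAV-GFP-MBNL1∆ in the fit, without a call. The log2 fold changes for AAV-GFP-MBNL1∆ against AAV-GFP were -1.77 ± 0.88 for Trac (edgeR adjusted p = 0.166), -2.56 ± 0.84 for Trbc1 (0.0602), -1.86 ± 0.78 for Trbc2 (0.114) and -1.16 ± 0.49 for Trdc (0.109). The ranges of the 2 groups overlapped for each of the 7 tested genes. AAV-GFP library 2 carried much of the difference: without it the values were -0.65 for Trac, -1.26 for Trbc1, -0.87 for Trbc2 and -0.37 for Trdc. The sex-linked genes differed too. Xist, the noncoding RNA of the inactive X chromosome, ranged from 105 to 136 CPM over the 6 other libraries and from 0.0182 to 0.0902 CPM over the 3 given AAV-GFP-MBNL1∆, in which the Y-linked gene Ddx3y was at 82.6 to 84.6 CPM. Vector and sex cannot be told apart in either comparison with that group. AAV-GFP library 1 held the Y-linked gene Eif2s3y at 1.11 CPM, while the saline libraries and the other two of its group had none.

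The balance of chains was described as the share of gamma and delta reads. This share depends on transcript length, since Trdc has 3865 bases of annotated exon and Trac 935, so shares are given per kilobase of exon first. Gamma and delta constant genes made up 24.4%, 38.9% and 19.4% of constant-gene reads per kilobase after saline. After AAV-GFP they made up 9.28%, 5.94% and 10.3%, and after AAV-GFP-MBNL1∆ 6.45%, 12.8% and 11.7%. Every saline library lay above every vector library, and the vector groups overlapped. The means were 27.6 ± 10.2%, 8.50 ± 2.28% and 10.3 ± 3.38% (SD, n = 3 each). The saline shares rest on 46, 20 and 70 constant-gene reads, against 129 to 2389 in the vector libraries.

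Counted as raw reads, the same shares were 37.0%, 60% and 28.6% after saline, with Wilson 95% intervals of 24.5% to 51.4%, 38.7% to 78.1% and 19.3% to 40.1%. They were 14.9%, 11.1% and 22.5% after AAV-GFP (12.5% to 17.7%, 9.90% to 12.4% and 16.1% to 30.4%). After AAV-GFP-MBNL1∆ they were 15.8%, 21.5% and 22.8% (11.8% to 20.9%, 17.2% to 26.4% and 16.5% to 30.5%). The order of saline above both vector groups held on either scale. With Trdc set against Trac alone, per kilobase, it did not: the saline libraries stood at 13.0%, 32.6% and 7.46%, the AAV-GFP libraries at 4.80%, 4.69% and 15.7%, and the AAV-GFP-MBNL1∆ libraries at 7.97%, 6.87% and 11.6%, so the groups overlapped. Within AAV-GFP, the library with the fewest receptor reads had the highest Trdc share. No test was run on these shares, since they sum over genes chosen for this description.

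**Figure D3:**
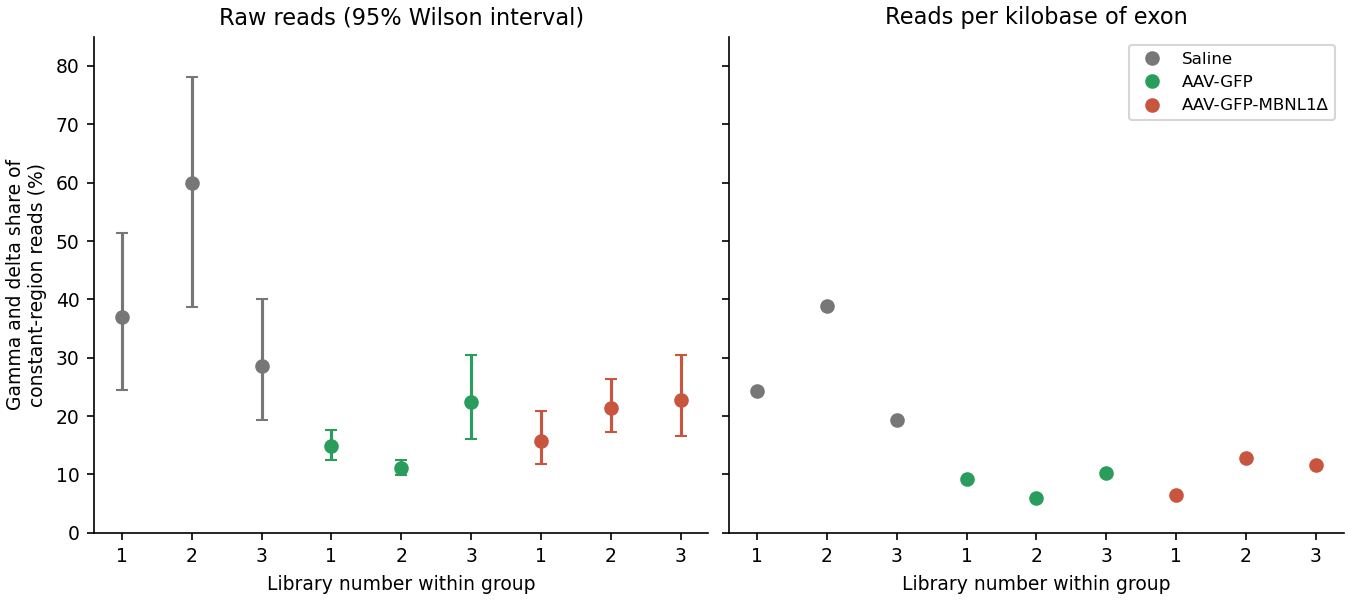
Share of gamma and delta chain reads among constant-gene reads in each library, as raw reads with 95% Wilson intervals (left) and per kilobase of annotated exon (right). The 3 saline libraries are at 28.6% or more on the left and 19.4% or more on the right, above the vector libraries, whose highest values are 22.8% and 12.8%.

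Set against the RNA of Cd3e, Cd3d and Cd3g, the signalling chains carried by every T-cell receptor, the alpha chain kept a steady ratio in the vector libraries. Cd3e, Cd3d and Cd3g summed to 0.289, 0.136 and 0.208 CPM after saline, 10.6, 28.3 and 1.81 CPM after AAV-GFP, and 3.88, 4.55 and 1.77 CPM after AAV-GFP-MBNL1∆. Trac reads per Cd3 read were 0.303, 0.304 and 0.317 after AAV-GFP and 0.314, 0.420 and 0.297 after AAV-GFP-MBNL1∆, while Cd3 itself ranged from 1.77 to 28.3 CPM. After saline the ratio was 0.650, 0.444 and 1.5, on few reads. Trdc per Cd3 read was 0.400, 0.889 and 0.500 after saline, 0.0631, 0.0617 and 0.244 after AAV-GFP, and 0.112, 0.128 and 0.161 after AAV-GFP-MBNL1∆. The saline libraries were above all vector libraries in the Trdc and Trac ratios and in that of the gamma constant genes, whose lowest saline value was 0.444 and highest vector value 0.132. The ratio of Trbc1 and Trbc2 overlapped, at 0.444 to 1.63 after saline and 0.492 to 0.902 in the vector libraries. These ratios are not corrected for transcript length.

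The V segments were far more thinly read than the constant genes. Of 144 annotated functional V genes, 68 had at least 1 read, and 739 reads fell on V genes in all. The numbers of V genes with a read were 4, 4 and 6 in the saline libraries, 38, 51 and 18 in the AAV-GFP libraries, and 19, 13 and 11 in the AAV-GFP-MBNL1∆ libraries. This number grows with the number of reads and is no measure of diversity on its own.

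Among the beta V segments, Trbv19 had the most reads and Trbv3 the next. Trbv19 (chr6:41178375-41179048) had 0, 0 and 1 read after saline, 8, 123 and 3 after AAV-GFP, and 1, 6 and 0 after AAV-GFP-MBNL1∆. The library with 123 reads gave nearly all of its group's total of 134. Trbv3 (chr6:41048290-41048828) had no read after saline, 21, 37 and 1 after AAV-GFP, and 20, 6 and 2 after AAV-GFP-MBNL1∆. It was the only V segment to pass the low-count filter. The limit that 3 counts over the saline group allow is 0.0141 CPM. With reads pooled over each group, Trbv3 was at 21.6 times that limit after AAV-GFP and 10.5 times after AAV-GFP-MBNL1∆. These pooled ratios carry no spread between libraries, and AAV-GFP library 3, with 1 read, was at 0.0221 CPM. The edgeR adjusted p was 0.128 and 0.127, and the fitted log2 fold changes of 7.22 ± 1.96 and 6.30 ± 2.16 depend on smoothing of the saline zeros.

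The other beta segments had fewer reads. Trbv30 had 10 of its 13 reads and Trbv21 had 4 of its 6 in AAV-GFP library 2. Trbv29 had 0, 0 and 1 read after saline, 11, 25 and 2 after AAV-GFP, and 1, 1 and 2 after AAV-GFP-MBNL1∆. Trbv1 had 0, 2 and 0, then 10, 19 and 0, then 2, 1 and 1 in the same order. Trbv2 had 0, 1 and 1, then 7, 17 and 3, then 1, 4 and 0. Trbv31, the only beta V segment downstream of the constant genes in the annotation, had 1, 0 and 0 reads after saline, 10, 17 and 2 after AAV-GFP and none after AAV-GFP-MBNL1∆. Of the 28 genes, 14 were higher in every AAV-GFP library than in every saline library, and 6 were higher in every AAV-GFP-MBNL1∆ library than in every saline library. Of all tested genes, 0% were called higher in the first of these comparisons and 4.76% in the second. Lack of overlap in that direction held for 14.7% of all 18514 tested genes in the first and 22.7% in the second. Of the 28, 4 were lower in every AAV-GFP-MBNL1∆ library than in every AAV-GFP library: Trbv29, Trbv31, Trav8d-1 and Trdv4. Between the vectors 10.3% of all tested genes were called lower, and 19.2% lay below without overlap.

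Beta usage could be described in 2 libraries, those with at least 50 beta V reads. In AAV-GFP library 2, Trbv19 took 46.1% of 267 reads (Wilson 95% interval 40.2% to 52.1%), and the inverse of the chance that 2 reads come from the same segment, an effective number of segments, was 3.92. In AAV-GFP library 1, Trbv19 took 11.1% of 72 reads (5.74% to 20.4%) and Trbv3 led with 29.2% (19.9% to 40.5%), with an effective number of 6.17. The 2 libraries of the same group thus differed in their leading segment, with intervals for Trbv19 that do not meet. Reads of 1 clone are not independent, so these intervals cover counting error only.

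In the other libraries the numbers on the same 9 segments were small, and are given as counts. Trbv3 held 20 of 26 beta V reads in AAV-GFP-MBNL1∆ library 1 (76.9%, Wilson 95% interval 57.9% to 89.0%). Trbv26 held 9 of 15 in AAV-GFP-MBNL1∆ library 3 (60%, 35.7% to 80.2%) and none of 26 or 20 in the other two libraries of that group. In AAV-GFP-MBNL1∆ library 2, Trbv3 and Trbv19 tied at 6 of 20. AAV-GFP library 3 had 12 beta V reads on 6 segments, with 3 each on Trbv2 and Trbv19. The 3 AAV-GFP-MBNL1∆ libraries thus had 3 different leaders, as the plot of beta V shares shows.

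**Figure D4:**
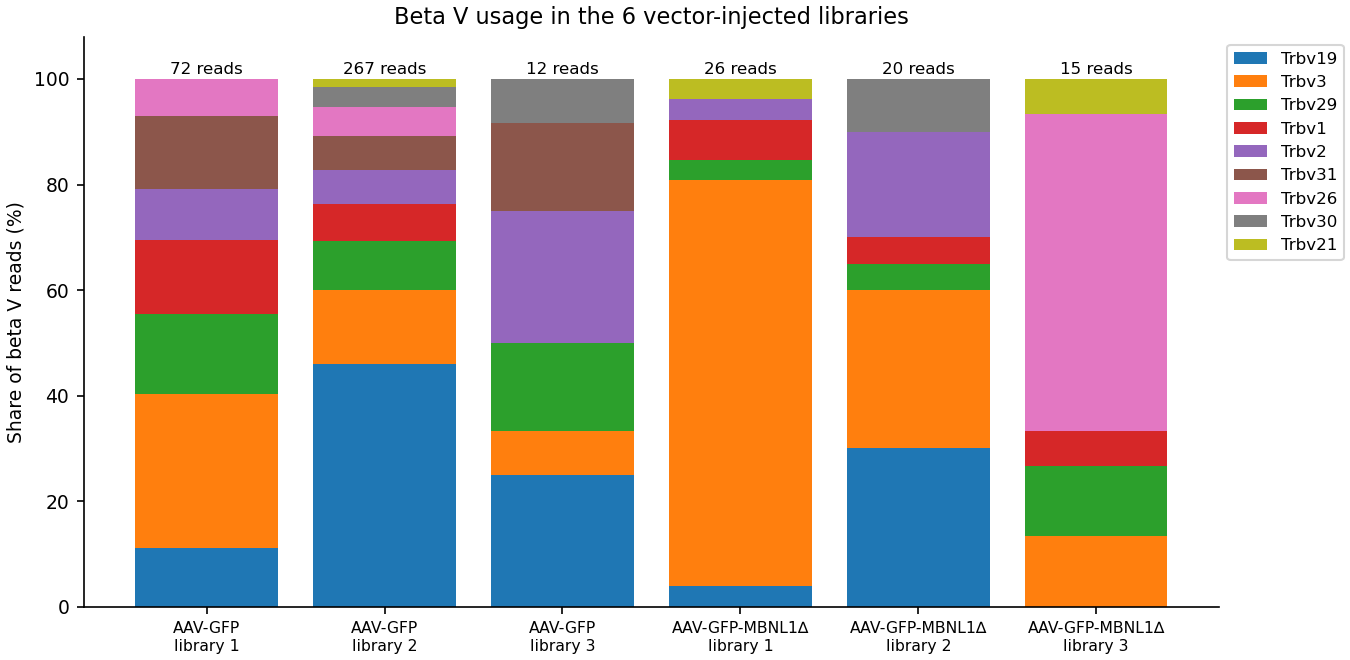
Share of the reads on the 9 beta segments above the minimum that each segment took in the 6 vector libraries. The number of these reads is above each bar, and bars on 12 to 26 reads are imprecise. Trbv19 takes 46.1% in AAV-GFP library 2, Trbv3 76.9% in AAV-GFP-MBNL1∆ library 1 and Trbv26 60% in AAV-GFP-MBNL1∆ library 3.

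The reads on the beta locus left a gap in the middle. Of 22 annotated functional beta V genes, 11 had reads, 424 in all, and the other 11 had none in any of the 9 libraries. Those 11 are neighbours: Trbv4, Trbv5, Trbv12-1, Trbv13-1, Trbv12-2, Trbv13-2, Trbv13-3, Trbv14, Trbv15, Trbv16 and Trbv17. With 8 annotated pseudogenes among them, also at 0, they fill an unbroken run from Trbv4 to Trbv18 (chr6:41059394-41175608). Trbv3 on one side had 87 reads and Trbv19 on the other 142. Every functional V gene outside the run had at least 1 read. In sequence these genes are distinct: at least 98.8% of the 50-base words in each of the 11 occur in no other annotated V gene. A count of 0 over 9 libraries allows up to 3 reads for each. The mice were FVB and the reference annotation is from C57BL/6J, and the FVB sequence of this region was not examined.

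**Figure D5:**
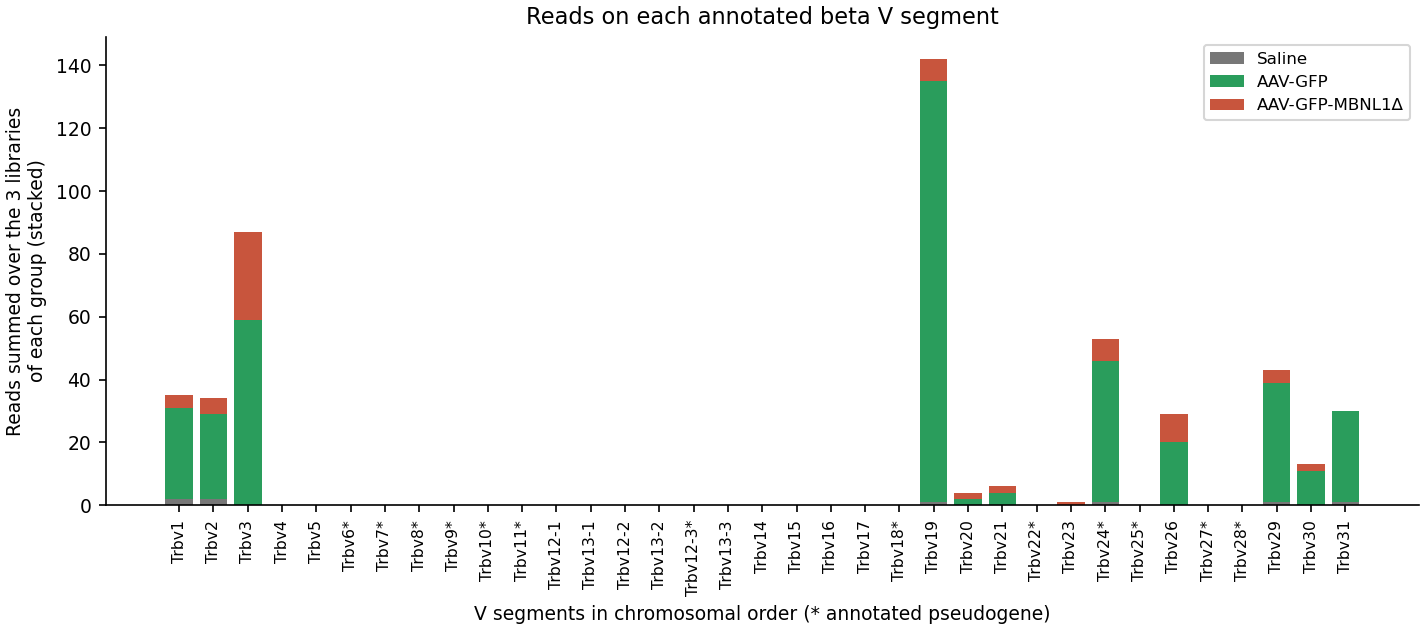
Reads on each of the 35 annotated beta V segments in chromosomal order, stacked by group (sums over 3 libraries); asterisks mark annotated pseudogenes. No read falls on the 19 segments from Trbv4 to Trbv18, while the flanking Trbv3 and Trbv19 have 87 and 142, and the pseudogene Trbv24 has 53.

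The alpha V segments had 238 reads spread over 46 of 110 annotated genes. One segment in 1 library stood apart. Trav6d-4 (chr14:52753367-52753846) had 78 reads in AAV-GFP library 2 and none in the other 8 libraries. There it took 62.9% of the 124 reads on alpha V segments above the minimum (Wilson 95% interval 54.1% to 70.9%), and the effective number of segments was 2.46. The 124 reads lay on 13 segments, while 34 of all 110 annotated alpha V genes had a read in this library. Leaving out the segments below the minimum raises the share and lowers the effective number. This is the library in which Trbv19 led the beta chain. Its near copy Trav6-4, printed above, had 3 reads, and 73.3% of the 50-base words of Trav6d-4 occur in no other annotated V gene. These words are those of the C57BL/6J annotation, and the FVB sequence of the 2 segments was not examined. No other library reached 50 alpha V reads. In AAV-GFP library 1 the 22 reads on alpha V segments above the minimum lay on 10 of those 13 segments, led by Trav8d-1 with 5. Counted over all 110 annotated alpha V genes, 23 had a read in that library.

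The next alpha segments by total reads were Trav3-3 and Trav8d-1 with 11 each, and Trav3-1 and Trav14n-3 with 10 each. Trav8d-1 had no read after saline, 5, 3 and 1 after AAV-GFP, and 1, 0 and 1 after AAV-GFP-MBNL1∆. Trav6-1 had 8 reads, all in AAV-GFP library 2. Trav11, the alpha segment of invariant natural killer T cells, had no read in any library, but Trav11 is identical in sequence to Trav11d and none of its 50-base words is its own. Traj18, the joining segment of the same invariant receptor, had 0, 0 and 0 reads after saline, 2, 1 and 0 after AAV-GFP, and 2, 4 and 2 after AAV-GFP-MBNL1∆. Trav1, the alpha segment of mucosal-associated invariant T cells, had 2 reads.

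Near copies bear on the alpha locus more than on the beta locus. Of the 64 alpha V genes with no read, 37 have no 50-base word of their own, and the median share of own words among the 64 was 0%. Among the 13 alpha V genes above the minimum the median was 55.8%. The annotated locus holds 34 segments with a d in the name and 28 with an n, which are duplicates of the plain segments. Of these, 23 and 21 had no read, against 18 of 46 plain segments. For such genes a count of 0 does not show that the segment was unused.

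Gamma and delta V reads were few. Trgv2 (chr13:19336573-19337167) had 1, 0 and 1 read after saline, 6, 17 and 1 after AAV-GFP, and 1, 2 and 0 after AAV-GFP-MBNL1∆. In AAV-GFP library 2 it took 17 of the 27 reads on the 3 gamma V segments above the minimum, with 8 on Tcrg-V1 and 2 on Tcrg-V4. Of all 7 annotated gamma V genes, 4 had a read in that library. Tcrg-V1 shares 94.9% of its aligned bases with Trgv2. Trdv4 (chr14:54074905-54075515) had 1, 0 and 0 reads after saline, 5, 5 and 2 after AAV-GFP, and 2, 0 and 0 after AAV-GFP-MBNL1∆. Among all V reads the gamma and delta segments made up 13.2%, 8.82% and 25.9% after AAV-GFP and 7.14%, 6.25% and 4.55% after AAV-GFP-MBNL1∆. The 4 to 6 V reads of each saline library are too few for a share.

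Other genes of the receptor's pathway were tested in the same fit. Of 39 genes listed for receptor signalling, T-cell identity and antigen presentation, 33 passed the low-count filter. A gene could pass it on vector-library reads alone, as Cd8a did. For AAV-GFP against saline none was called, 27 had an unadjusted p under 0.05, and the median log2 fold change was 3.62. For AAV-GFP-MBNL1∆ against saline 7 rose and none fell, beside 4.76% of all genes called higher. The 7 calls became 0 without any 1 of saline libraries 1, 2 and 3 or AAV-GFP-MBNL1∆ libraries 1 and 2. In those fits 287 to 488 of all genes were called higher. They became 1 without AAV-GFP library 1, 2 without AAV-GFP-MBNL1∆ library 3, 15 without AAV-GFP library 2 and 18 without AAV-GFP library 3. In the same order, 607 of 18769, 286 of 19005, 1933 of 18682 and 1146 of 19053 genes were called higher. For AAV-GFP against saline, leaving out AAV-GFP library 3 brought 25 calls, beside 2907 of 19053 genes called higher. The 7 genes called for AAV-GFP-MBNL1∆ against saline in the fit of all 9 libraries were as follows. Among the signalling genes Cd3e rose by a log2 fold change of 4.11 (edgeR adjusted p = 0.0337), with Lck, the kinase that starts receptor signalling, at 3.96 (0.0311). The regulators Themis (3.38, 0.0327), Ubash3a (3.97, 0.0265) and Cd6 (4.22, 0.0404) rose as well, as did the co-receptor chain Cd8b1 (6.68, 0.0346). Mr1, which presents metabolites to mucosal-associated invariant T cells and is expressed widely, rose by 0.43 (0.0337). Cd4 stood at 3.12 (0.0535) and Cd8a at 8.83 (0.0737), against no Cd8a read after saline, and neither passed.

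For AAV-GFP-MBNL1∆ against AAV-GFP, 4 of the 33 pathway genes fell, beside 10.3% of all genes called lower. Leaving out AAV-GFP library 3 made them 26, AAV-GFP-MBNL1∆ library 3 made them 0, AAV-GFP-MBNL1∆ library 1 made them 1, AAV-GFP library 2 made them 3, and each of the other 5 libraries made them 2. In the same order, 4269 of 19053, 270 of 19005, 552 of 18986 and 1759 of 18682 genes were called lower. Without each of the other 5 libraries, 494 to 1106 genes were. B2m, the light chain of class I antigen-presenting molecules, fell by 2.31 on the log2 scale (edgeR adjusted p = 0.0328), and the lipid-presenting Cd1d1 fell by 1.84 (0.0163). The kinase Fyn fell by 0.81 (0.0416) and the transcription factor Gata3 by 1.77 (0.0154). Mr1 rose by 0.70 (0.00458). Zbtb16, a transcription factor of some T-cell subsets, was at 145 CPM after saline, where Trac was at 0.187 CPM. Rag1, needed for receptor assembly, had no read in any library. Rag2 had 17 reads over the 9 libraries and Ptcra, the surrogate alpha chain of the thymus, 7. Dntt, which adds bases at receptor junctions, had 85 reads and was at 0.0722 to 0.0780 CPM after saline, 0.119 to 0.349 CPM after AAV-GFP and 0.0300 to 0.236 CPM after AAV-GFP-MBNL1∆, where it overlapped saline.

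Markers of blood cells varied with the receptor genes across libraries. The 12 T-cell markers summed to 19.6 to 23.4 CPM after saline, 27.7 to 121 CPM after AAV-GFP and 22.0 to 32.9 CPM after AAV-GFP-MBNL1∆. Thy1 alone made up 16.3 to 20.7 CPM of the saline sum, and it was at 14.1 to 15.1 CPM after AAV-GFP-MBNL1∆. The summed level of 5 B-cell markers was 0.121 to 0.481 CPM after saline, 1.06 to 36.5 CPM after AAV-GFP and 1.80 to 6.47 CPM after AAV-GFP-MBNL1∆. The 5 natural killer cell markers summed to 0.182 to 0.375, 2.66 to 30.9 and 1.36 to 3.55 CPM in the same order, and the 5 macrophage markers to 55.1 to 71.2, 113 to 1057.4 and 98.6 to 141 CPM. The number of markers higher in every AAV-GFP library than in every saline library was 10 of 12 for T cells, 4 of 5 for natural killer cells, 4 of 5 for B cells and 5 of 5 for macrophages, against 14.7% of all tested genes. For AAV-GFP-MBNL1∆ against saline it was 9 of 12, 4 of 5, 5 of 5 and 4 of 5, against 22.7%. AAV-GFP library 2 was the highest of all 9 for each of these lists and the lowest for the muscle markers, at 79912 CPM. Of the markers of lymph node stroma, Ccl21a was at 0 in all libraries and Glycam1 at most at 0.0150 CPM. Cr2, on the same list, was at 0.356, 0.560 and 0.0664 CPM after AAV-GFP, above its 0.0260 to 0.0303 CPM after saline. The fat markers Adipoq and Plin1 were at 1.05 to 21.2 and 0.891 to 22.8 CPM, lowest after AAV-GFP-MBNL1∆. The part of other cell types in the receptor values was not tested.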

How the data were processed

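Polyadenylated RNA was sequenced from 9 libraries of gastrocnemius muscle, 3 in each of 3 groups taken from the sample titles. The values are counts of reads per gene as the authors deposited them. Per the submitters' processing notes, cutadapt 2.10, STAR 2.7.5a, HTSeq 0.12.4, DESeq2 1.30.0 and the mm10 build were used to process the data. Neither the annotation release nor the strand setting is given in the sources used here. The 5 summary rows, which name no gene, held 16.8% to 18.3% of each file's reads and were left out. Libraries held 44603618 to 76970849 counts on genes. Of the 55401 gene identifiers, 55141 matched GENCODE M21, which supplied biotypes, exon lengths, coordinates and transcript sequences.

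Counts were scaled by TMM and tested with edgeR 4.0.16 (R 4.3.3; filterByExpr, robust quasi-likelihood fit over all 9 libraries, Benjamini-Hochberg adjustment within each comparison, threshold 0.05), which left 18514 genes. The code was checked on simulated counts. Alternatives were DESeq2 1.42.0 and its size factors, limma-voom (limma 3.58.1), other filters, a fit on the groups compared alone, a replicate block, and leaving out each library. Shares carry Wilson 95% intervals, which cover counting error only, and a count of 0 allows up to 3 counts. Usage is given on segments above the minimum, for libraries with at least 50 such V reads of a locus. Own words are 50-base words of a V gene found in no other annotated V gene.

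Genes named are all constant genes, the top segments of each locus by reads (6 alpha, 6 beta, 4 gamma, 4 delta at most), those leading a library with 50 reads, Trav11, Trav1 and a fixed pathway list. Others, such as Trbv26, Trbv24, Traj18 and the run from Trbv4 to Trbv18, were chosen after their values were seen. The members and lists were chosen with earlier results of these data known. Protein and promoter sequences were not used here. The result of 1 gene of the pathway list is not reported here.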

Additional observations from a re-analysis of the deposited data

Results flagged for a closer look

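Reads also fell on receptor features outside the 28 genes, above their level in the saline libraries. Trbv24, annotated as a pseudogene and printed above with its stop codon, had 45 reads in the AAV-GFP libraries, against 1 after saline and 7 after AAV-GFP-MBNL1∆. The alpha J segments had 91 reads after AAV-GFP, against 6 and 50. The first cluster of beta J segments, Trbj1, had 114 reads after AAV-GFP, against 3 and 11. The second cluster, Trbj2, had 14 after AAV-GFP, 0 after saline and 2 after AAV-GFP-MBNL1∆. None of these differences was tested.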

How the results depend on the processing

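Against a count of 0 receptor genes called in each comparison, DESeq2 called 8 for AAV-GFP against saline, 4 for AAV-GFP-MBNL1∆ against saline and 2 for AAV-GFP-MBNL1∆ against AAV-GFP. Over all genes, DESeq2 called 1758 of 20901 and 1521 of 19766 higher against saline, and 2960 of 20333 lower between the vectors. Restricting the fit to the groups compared called 4 for AAV-GFP-MBNL1∆ against saline, and testing without a filter on low counts called 2 for AAV-GFP-MBNL1∆ against AAV-GFP. Those 2 fits called 2303 of 17811 genes higher and 1133 of 30602 lower in the same comparisons. The deviations of same-numbered libraries correlated at -0.08 to 0.45 over 9 pairs, 2 of them over 0.1. Between libraries of different number the range was -0.44 to 0.28. Whether the replicate numbers pair the libraries cannot be told from these values. With a replicate block, 2 receptor genes (Tcrg-C2 and Trdc) were called for AAV-GFP against saline, 1 (Trdc) for AAV-GFP-MBNL1∆ against saline and 0 between the vectors. Of all 18514 genes, 99 and 747 were then called higher against saline. Leaving out 1 library at a time gave 0 to 10, 0 to 4 and 0 to 8 calls in the 3 comparisons. Over all genes, 0 to 2907 and 286 to 1933 were then called higher against saline, and 270 to 4269 lower between the vectors. Of 318 alternative log2 fold changes of the tested genes, 280 kept their side of the threshold, 37 passed it and 1 changed sign: Tcrg-C4 for AAV-GFP-MBNL1∆ against saline was -0.31 without AAV-GFP-MBNL1∆ library 2, and ranged from -0.31 to 1.03 with 1 library left out. The mean gamma and delta share on raw reads was 41.8% after saline, 16.2% after AAV-GFP and 20.01% after AAV-GFP-MBNL1∆, and on V segments 16.0% after AAV-GFP and 5.98% after AAV-GFP-MBNL1∆. With a minimum of 20 reads Trav6d-4 took 100% of alpha V reads in AAV-GFP library 2, because no other alpha segment was left, and per kilobase Trbv19 took 38.3% of beta V reads there. An alternative chosen after seeing the data divided by Cd3e alone, a smaller denominator by construction. The ratios after saline, AAV-GFP and AAV-GFP-MBNL1∆ were then 1.89, 0.672 and 0.680 for Trac, 2.1, 1.51 and 1.07 for Trbc1 and Trbc2 together, and 1.21, 0.257 and 0.265 for Trdc. Setting Trdc against Trac alone was also chosen after seeing the data. The counts of pathway genes called were set against the same alternatives, a comparison added after seeing the data. For AAV-GFP against saline, 0 were called higher, against 23 by DESeq2, 7 with the replicate block and 0 to 25 with 1 library left out. Over all genes the same settings called 1758 of 20901, 99 of 18514 and 0 to 2907 higher. For AAV-GFP-MBNL1∆ against saline, 7 were called higher, against 2 without a filter, 17 by DESeq2, 1 by limma-voom, 21 in the fit on the groups compared and 0 to 18 with 1 library left out. Over all genes the same settings called 707 of 30602, 1521 of 19766, 815 of 18514, 2303 of 17811 and 286 to 1933 higher. Between the vectors, 4 were called lower, against 2 without a filter, 14 by DESeq2, 2 by limma-voom, 1 in the fit on the groups compared and 0 to 26 with 1 library left out. Over all genes the same settings called 1133 of 30602, 2960 of 20333, 1229 of 18514, 371 of 17935 and 270 to 4269 lower. The saline values rest on 19 to 64 reads per library over the 28 genes. Except as given here, the causes of these changes were not tested.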
